A study of Rattus rattus with 12 samples.

Results

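The 100 most abundant transcripts of untreated rat perigonadal fat were followed after injection of ice slurry, a partly frozen fluid that cools the fat it is placed in. They were the transcripts with the highest mean TPM over the 3 control libraries, and they were 100 of the 46726 transcripts quantified. TPM is a length-corrected measure of abundance relative to the library total, so that a rise of some transcripts lowers the TPM of the others. Poly(A) selected RNA was sequenced from adult male Sprague-Dawley rats that were 8 weeks old when a high fat diet began, were fed it for 9 weeks before treatment, and stayed on it until tissue was taken. Perigonadal fat of one side was exposed through the abdomen and received 10 ml of slurry. The 4 groups of 3 libraries were untreated control fat and fat taken 1 day, 3 days or 14 days after slurry, all from rats on the same diet. The study describes the untreated side as the control. The labels do not say which control and treated libraries came from the same animals, and nothing in them says at which day control fat was collected. The p-values below therefore measure the spread between these libraries. The libraries held between 20466915 and 28802360 estimated reads.

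In adipose tissue, poly(A) RNA is usually dominated by a small number of transcripts of a few broad kinds. Messages of the mitochondrial genome encode parts of the respiratory chain, ribosomal protein messages are short and are made at similar levels to one another, and adipocyte messages encode proteins that bind, store or release lipid or are secreted as adipokines. Fat also holds blood vessel, mesothelial, fibroblast and immune cells, whose messages add to the bulk RNA. None of the 46726 transcript identifiers could be paired with a gene, because the gene table at hand held none of them. No transcript below is assigned to any of these kinds, the tissue label was not checked against marker genes, and transcripts are named by their rank in mean control TPM.

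Because control libraries chose the transcripts, their control level was high by construction, and differences between control and slurry are given as a description. Tests were read only between the slurry days, and the counts of calls against control are printed once with nothing drawn from them. One library, day 1 replicate 2, is described first. The counts below were made for it only, so they do not show that it alone differed from its group. CPM is the read count scaled to the library total after edgeR's TMM adjustment. Day 1 replicate 2 was more than 2-fold above the other day 1 libraries' mean CPM for 28 of the 100 transcripts, against 15.4% of all 28016 tested. It was more than 4-fold above for 18 of the 100, against 7.24% of all tested. Over the 100 transcripts, its nearest library, by the median absolute difference in log2 TPM, was control replicate 2. Of the 12 libraries, 7 were nearest to a library of their own group. Day 1 replicates 1 and 3 were nearest to day 3 libraries. Day 14 replicate 1 was nearest to day 1 replicate 3, and day 14 replicate 2 to control replicate 3. Where a call or a share was computed without day 1 replicate 2 and changed what is described here, that value is given too.

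The 100 transcripts made up 40.2%, 38.4% and 34.8% of summed TPM in the control libraries, a mean of 37.8% ± 2.74 (SD, n = 3). At day 1 they made up 30.9%, 35.8% and 29%, with a mean of 31.9% ± 3.53. The day 3 values were 29.7%, 31.4% and 27.7%, with a mean of 29.6% ± 1.86. All 3 day 3 libraries and 2 of the 3 day 1 libraries lay below the lowest control library. At day 14 the libraries read 30.8%, 34.8% and 38.6%, with a mean of 34.7% ± 3.92, and overlapped with control. In a bulk tissue library, fewer cells of a type and less RNA per cell cannot be told apart. Across the 9 slurry libraries the 3 days did not differ beyond their spread (exact permutation test over 1680 arrangements, p = 0.239, smallest possible p 0.00357; p = 0.143 without day 1 replicate 2).

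The share of estimated reads, which is not corrected for length, was lower, and its group means ran in the same order when all libraries were used. The control libraries held 22.5%, 20.1% and 18.3%, a mean of 20.3% ± 2.14 (SD, n = 3). The day 1 libraries held 13.7%, 19% and 12.9%, a mean of 15.2% ± 3.33. At day 3 the share was 14.4%, 14.7% and 13.6%, a mean of 14.2% ± 0.546. At day 14 it was 15%, 17.1% and 19.7%, a mean of 17.3% ± 2.36. Without day 1 replicate 2 the day 1 mean was 13.3%, below that of day 3, so that day 3 was no longer the lowest. Every day 14 library was above every day 3 library. The exact permutation test over the 9 slurry libraries gave p = 0.379, and p = 0.0464 without day 1 replicate 2. For pairs of days, day 14 exceeded day 3 by 5.13 percentage points of TPM (exact permutation p = 0.2, adjusted p = 0.6 over 6 tests) and by 3.05 points of reads (p = 0.1, the smallest that 3 against 3 libraries allow, adjusted p = 0.6). The other 4 pairs gave exact permutation p-values from 0.4 to 0.9.

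**Figure D1:**
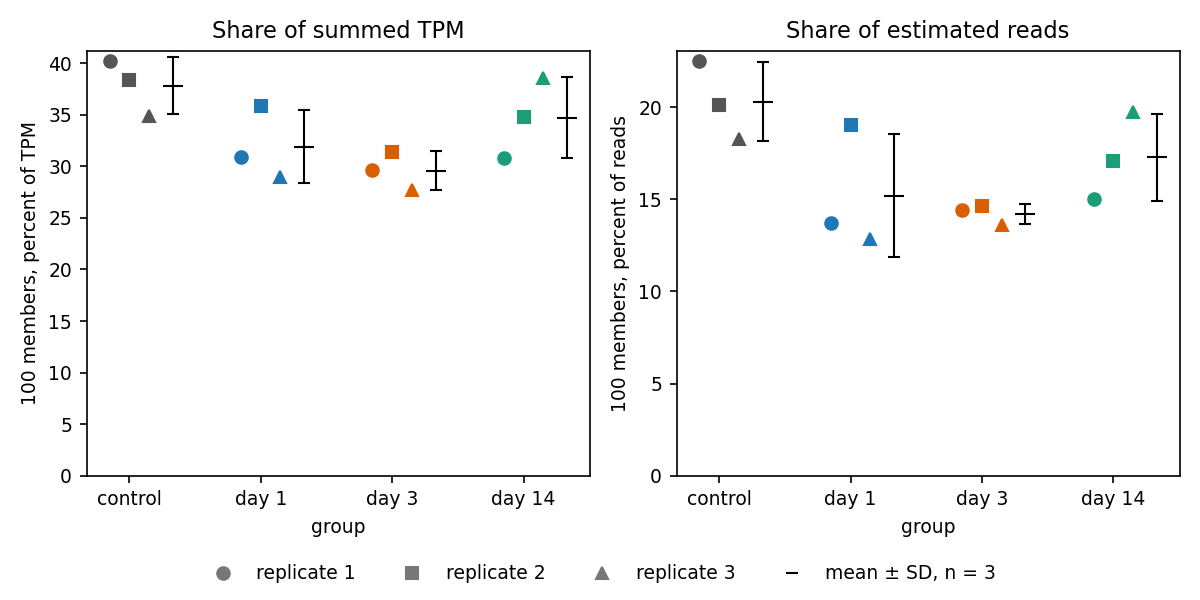
Share of each library taken by the 100 transcripts, as percent of summed TPM (left) and percent of estimated reads (right), for control, day 1, day 3 and day 14; symbols are replicates and the bars show mean ± SD (n = 3). Day 3 holds the lowest means (29.6% of TPM, 14.2% of reads; without day 1 replicate 2, day 1 is lower in reads, at 13.3%), day 1 replicate 2 sits above the other day 1 libraries, and the 3 day 14 libraries spread from 30.8% to 38.6% of TPM.

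The difference in TPM share was spread unevenly over the ranks. Ranks 1 to 10 took 17.7% of TPM in control, 13.5% at day 1, 12.1% at day 3 and 16.4% at day 14. Ranks 11 to 50 took 13.4%, 11.5%, 10.7% and 11.7% in the same order. The mean TPM share was thus below control by more in ranks 1 to 10 than in ranks 11 to 50 at day 1 and day 3, and by less at day 14. Ranks 51 to 100 took 6.79%, 6.85%, 6.81% and 6.59%, so that their mean TPM share moved by less than 0.3 percentage points. This held for TPM only. In estimated reads, ranks 51 to 100 held 4.6%, 3.76%, 3.41% and 4.01% in the same order. Ranks 11 to 50 held 9.31%, 6.8%, 7.12% and 7.89% of reads, and ranks 1 to 10 held 6.4%, 4.64%, 3.69% and 5.37%. The limit of the list fell in a dense stretch. Rank 100 had a mean control TPM of 1101 and the next transcript, outside the list, had 1076. The 5 transcripts just inside the limit began at 1139.6 and the 5 just outside ended at 1057. When the list was chosen from 2 of the 3 control libraries, 93, 97 or 96 of the 100 transcripts were retained, and the new lists held 39.7%, 38.3% and 34.6% of TPM in the control library that was left out.

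The list was rich in short transcripts, since TPM divides reads by length. The median annotated length was 778.5 bases, against 2637 bases for all transcripts tested, and 63 of the 100 were under 1000 bases. Only 49 of the 100 were also among the 100 transcripts with the most control reads, whose median length was 2256.5 bases. Rank 1, of 204 bases, held 3.44% of control TPM but 0.133% of control reads. Its effective length, the number of positions a fragment can start from and the divisor behind its TPM, was 51 to 59 bases. Ranks 25, 34 and 54 were of 234, 159 and 135 bases, and the effective length of rank 54 was 17 to 21 bases. The TPM of these 4 transcripts therefore depends strongly on the fragment length that was estimated for each library. All 100 had more than 100 reads in every library and passed the filter on low counts.

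Of the 10 leading transcripts, 9 moved together and over a narrow range. Rank 1 had TPM values of 33036, 40739 and 29489 in control, 30572, 32484 and 29471 at day 1, 27182, 33324 and 23434 at day 3, and 29395, 34528 and 37633 at day 14. Its 4 groups overlapped. Rank 2, of 681 bases, read 25543, 28839 and 23492 in control, 20983, 21868 and 19125 at day 1, 18367, 21443 and 15900 at day 3, and 20224, 24888 and 26477 at day 14. Rank 3, of 1545 bases, read 22839, 25693 and 22337 in control, 17216, 20229 and 17143 at day 1, 14789, 17745 and 14065 at day 3, and 16535, 20221 and 23178 at day 14. In both, every day 1 and day 3 library was below every control library, and day 14 overlapped with control. Rank 3 also held the most reads of these 3.

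Rank 4 was the exception among the leading 10. This transcript of 656 bases had control TPM values of 28977, 19624 and 15257. Its day 1 libraries read 3125, 16776 and 6643, so that replicate 2 lay within the control range and the others below it. It read 5763, 13515 and 7685 at day 3 and 15828, 21070 and 27014 at day 14, where all libraries were within the control range. Day 14 was above day 3 without overlap, with a log2 fold change of 1.34 (SE 0.61, edgeR quasi-likelihood test, adjusted p = 0.271).

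Ranks 5 to 10 had mean control TPM from 20478 down to 7474. Rank 5, of 784 bases, had group means of 20478 ± 1778 in control, 15962 ± 816 at day 1, 14236 ± 2064 at day 3 and 19098 ± 2973 at day 14 (SD, n = 3). Rank 6, of 684 bases, had group means of 15598 ± 1219, 13318 ± 850, 12090 ± 1796 and 14580 ± 1853 in the same order. The other members of this stretch were rank 7 (297 bases; 11456 TPM in control and 7644 at day 3), rank 8 (1143 bases; 8741 and 6226), rank 9 (955 bases; 7513 and 4958) and rank 10 (1039 bases; 7474 and 4701). For each of these 6, the lowest group mean was that of day 3 and the highest that of control.

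To describe which transcripts varied together, those whose log2(TPM + 1) correlated with a Pearson r over 0.9 across the 12 libraries were joined into sets. The sets were defined on these values after the data had been seen, and the libraries share normalization and group differences, so the correlations are a description and no test was made of them. This joined 72 transcripts into 10 sets, of 29, 13, 12, 5 and 3 members and 5 pairs, and left 28 in none. A transcript joined a set through an r over 0.9 with any 1 member, so that other members could correlate less with it. The lowest r between 2 members was 0.304 in the 29-member set (median 0.863). It was 0.721 in the 13-member set (median 0.951) and 0.722 in the 12-member set (median 0.928). With a limit of 0.95, chosen after seeing the data, 55 were joined.

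The 12-member set held ranks 1 to 3, 5 to 11, 18 and 32. Its sum was 17% ± 1.74 of TPM in control, 13.8% ± 0.914 at day 1, 12.2% ± 1.88 at day 3 and 15.5% ± 2.21 at day 14 (SD, n = 3). Each of the 12 had a mean below control on all 3 days, by 1.23 to 1.63-fold at day 3 and by 1.02 to 1.26-fold at day 14. From day 3 to day 14 all 12 had a positive log2 fold change, between 0.26 and 0.75, and the smallest adjusted p among them was 0.152 in edgeR's quasi-likelihood test.

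The 29-member set lay between ranks 21 and 96 and held no transcript of the top 20. Its members were short, with a median length of 608 bases, and flat. Their sum was 4.48%, 5.22% and 5.18% of TPM in control, 6.74%, 4.75% and 6.41% at day 1, 6.34%, 6.36% and 6.06% at day 3, and 5.73%, 5.05% and 4.57% at day 14. Day 3 lay above control in every library, while day 1 replicate 2 and day 14 lay within or near the control range. All 29 had a mean above control at day 1 and at day 3, by at most 1.52-fold, and 20 of the 29 at day 14. This direction depended on the scaling: with TMM-scaled counts, 24 of the 29 were above control at day 1, 19 at day 3 and 5 at day 14. From day 3 to day 14, 28 of the 29 had a negative log2 fold change, with a median of -0.19. Rank 71, of 482 bases, had a log2 fold change of -0.69 (edgeR quasi-likelihood test, adjusted p = 0.0425), which was not past the 2-fold limit.

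Relative to its level, the 13-member set had the widest range of the 5 larger sets. It held ranks 4, 12, 17, 19, 23, 27, 30, 51, 56, 59, 65, 75 and 97, with a median length of 1642 bases. It summed to 7.09%, 5.23% and 4.54% of TPM in the control libraries. At day 1 it summed to 0.569%, 5.05% and 1.21%, at day 3 to 0.974%, 1.66% and 1.09%, and at day 14 to 2.48%, 4.72% and 7.38%. All day 3 libraries were below all control and all day 14 libraries, day 1 replicate 2 was within the control range, and the day 14 libraries ran from below the lowest control to above the highest. Mean TPM of the 13 at day 3 was 2.37 to 36.3-fold below control, with a median of 13.2-fold. At day 14 it was between 0.316 and 1.39 times control, with a median of 0.816.

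**Figure D2:**
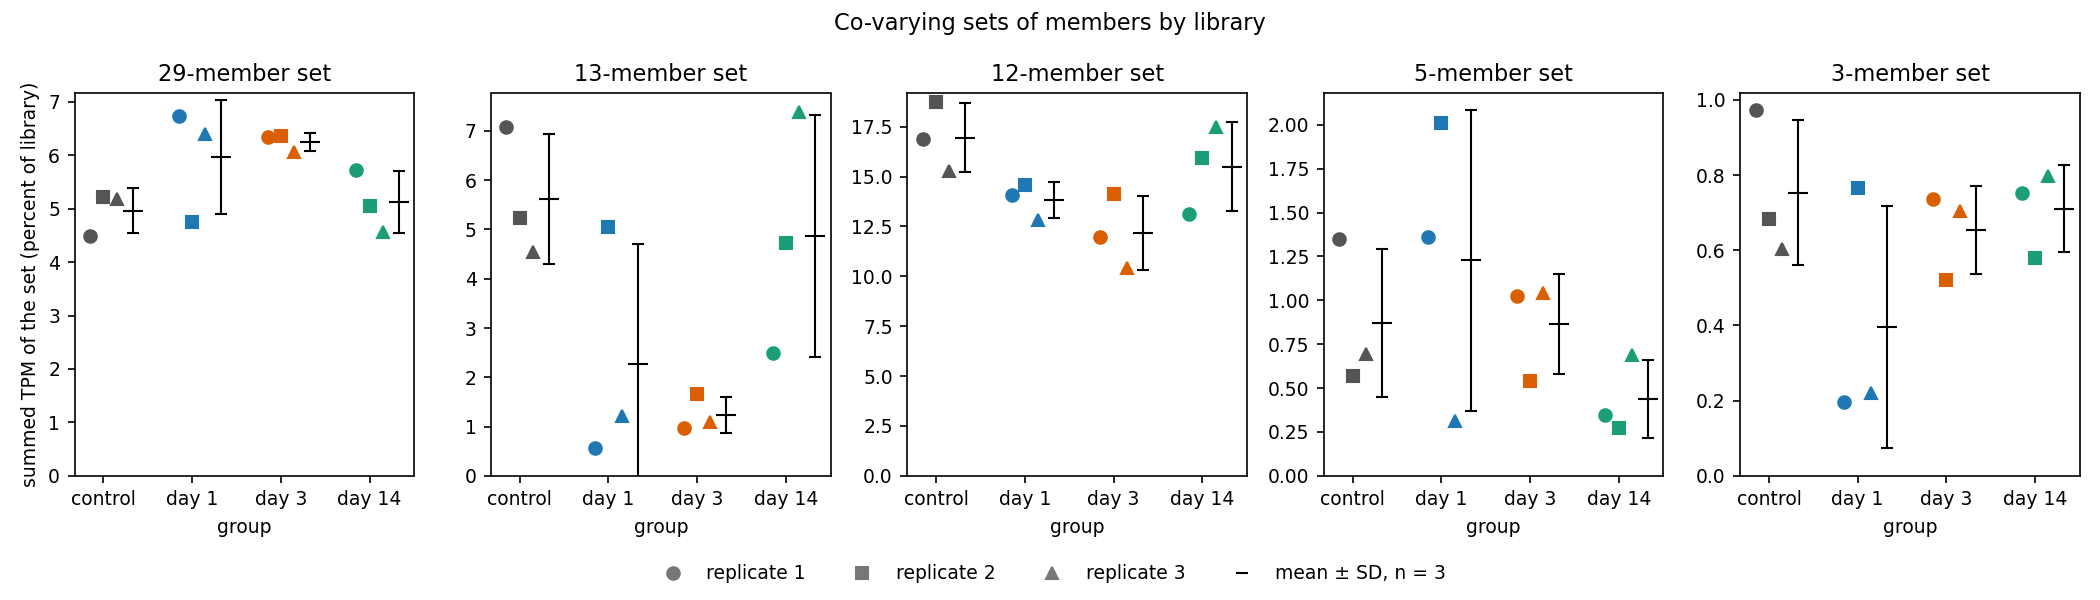
Summed TPM, as percent of the library, of the 5 larger sets of transcripts that varied together, by group; symbols are replicates and the bars show mean ± SD (n = 3), and the lower arm of the day 1 bar of the 13-member set is cut at 0. The 13-member set is at or below 1.66% in every day 3 library and from 2.48% to 7.38% at day 14, while the 29-member set stays between 4.48% and 6.74% throughout.

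Rank 51, of 1648 bases, had the largest distance between control and day 3 in this set. Its TPM was 2721, 1557 and 1213 in control, 39.8, 1639 and 164 at day 1, 71.9, 28.0 and 51.2 at day 3, and 162, 474 and 1099 at day 14. It was 36.3-fold below control at day 3. Rank 12, of 706 bases, read 7883, 6266 and 5818 in control, 532, 5712 and 871 at day 1, 522, 223 and 404 at day 3, and 971, 3299 and 7891 at day 14. In both transcripts day 1 replicate 2 was close to the control libraries, and day 1 replicates 1 and 3 were far below them. Of these lower values, only that of rank 51 in replicate 1 lay within the day 3 range, and the others were above it. Ranks 17 and 19, of 1642 and 2018 bases, tracked each other with r of 0.999 over the 12 libraries and a TPM ratio between 0.894 and 1.05. Reads of near-identical transcripts can be divided between them by the quantification, and whether these share sequence was not tested.

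Between day 3 and day 14 all 13 had a positive log2 fold change, from 1.34 to 4.67 with a median of 3.55, and all 13 had an adjusted p over 0.05 in edgeR's quasi-likelihood test (smallest 0.0840). With DESeq2, 12 of the 13 were past both limits, an adjusted p under 0.05 and a change over 2-fold, with log2 fold changes from 1.87 to 4.68. These were all of the 100 that it called higher (2.9% of all transcripts with at least 1 count). With edgeR, 4 of the 13 were past them when only transcripts with at least 10 counts in every library were kept (2.02% of all called higher), and 2 when only the 2 groups entered the fit (1.1% of all). The direction and size of the difference were thus similar between the tools, and the number of calls was not. The 13 were grouped by how they varied in these same libraries, so their number is not independent evidence of the direction. Between day 1 and day 14, 12 of the 13 had a positive log2 fold change, with a median of 0.94 and a smallest adjusted p of 0.248 in edgeR's quasi-likelihood test. Without day 1 replicate 2, 9 of the 100 were past both limits and higher at day 14 (2.17% of all transcripts tested), of which 5 belonged to the 13.

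The 5-member set (ranks 33, 43, 50, 87 and 93) varied as much within groups as between them. It summed to 1.35%, 0.571% and 0.691% of TPM in control, 1.36%, 2.01% and 0.310% at day 1, 1.02%, 0.538% and 1.04% at day 3, and 0.348%, 0.271% and 0.690% at day 14. Day 1 libraries gave both the highest value of the series and the second lowest. The 3-member set (ranks 22, 31 and 89) summed to 0.972%, 0.684% and 0.604% in control, 0.198%, 0.766% and 0.221% at day 1, 0.736%, 0.520% and 0.706% at day 3, and 0.753%, 0.579% and 0.799% at day 14. Its 2 lowest values were those of day 1 replicates 1 and 3, and day 1 replicate 2 was within the control range. In day 14 against day 1 the smallest adjusted p of the set was 0.366 in edgeR's quasi-likelihood test with all libraries. Without day 1 replicate 2 its 3 members were past both limits, with log2 fold changes from 1.66 to 2.82. In that fit 2.17% of all transcripts tested were past them and higher. The set was grouped by how its members varied in these same libraries, so the 3 calls are not independent of one another.

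Counted one by one, most of the 100 stayed near their control level. Mean TPM was within 2-fold of control for 82 at day 1, 79 at day 3 and 85 at day 14. It was more than 4-fold below control for 1, 16 and 4 transcripts on these days, and between 2 and 4-fold below for 16, 3 and 9. In TMM-scaled CPM, 21, 20 and 14 of the 100 were more than 2-fold below control by the fit on these days, against 10.3%, 12.9% and 9.88% of all transcripts tested. Without day 1 replicate 2, a reading added after seeing the data, 18 were more than 4-fold below control at day 1, among them all of the 13-member set. Of the 16 that were more than 4-fold below control at day 3, 11 belonged to the 13-member set, and 14 were more than 4-fold higher in day 1 replicate 2 than in the mean of the other two day 1 libraries. At day 14, 9 of the 16, all of the 13-member set, were within 2-fold of control or above it, 3 were between 2 and 4-fold below, and 4 were still more than 4-fold below.

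Those 4 were 14 and 39, which formed a pair, and ranks 15 and 49, which formed another. Rank 14, of 3327 bases, read 7536, 3013 and 7101 TPM in control, 268, 2920 and 949 at day 1, 429, 196 and 422 at day 3, and 51, 406 and 851 at day 14. Every slurry library was below the lowest control library. Rank 39, its partner of 1251 bases, correlated with it at r of 0.977. Ranks 15 and 49, of 391 and 390 bases, correlated at r of 0.975 with each other, and unlike the 13-member set they were lowest at day 14.

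Only 3 transcripts had a mean more than 2-fold above control on any day. Rank 40, of 4787 bases, read 2587, 2152 and 1897 in control, 556, 3883 and 1074 at day 1, 10046, 5151 and 9678 at day 3, and 9589, 3727 and 3451 at day 14. All day 3 and day 14 libraries and day 1 replicate 2 were above the control range, and the other two day 1 libraries were below it. Its log2 fold change from day 1 to day 3 was 2.05 (SE 0.70, edgeR quasi-likelihood test, adjusted p = 0.419), and 3.34 without day 1 replicate 2 (SE 0.55, adjusted p = 0.0657). From day 1 to day 14 it was 1.51 (adjusted p = 0.296) with that library and 2.80 (adjusted p = 0.0270) without it. Rank 72, of 1322 bases, read 530, 1586 and 1954 in control, 3217, 1923 and 5397 at day 1, 2485, 2872 and 2522 at day 3, and 3847, 6238 and 2856 at day 14, with a wide spread among the control libraries. Rank 100 is described below with the tests.

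**Figure D3:**
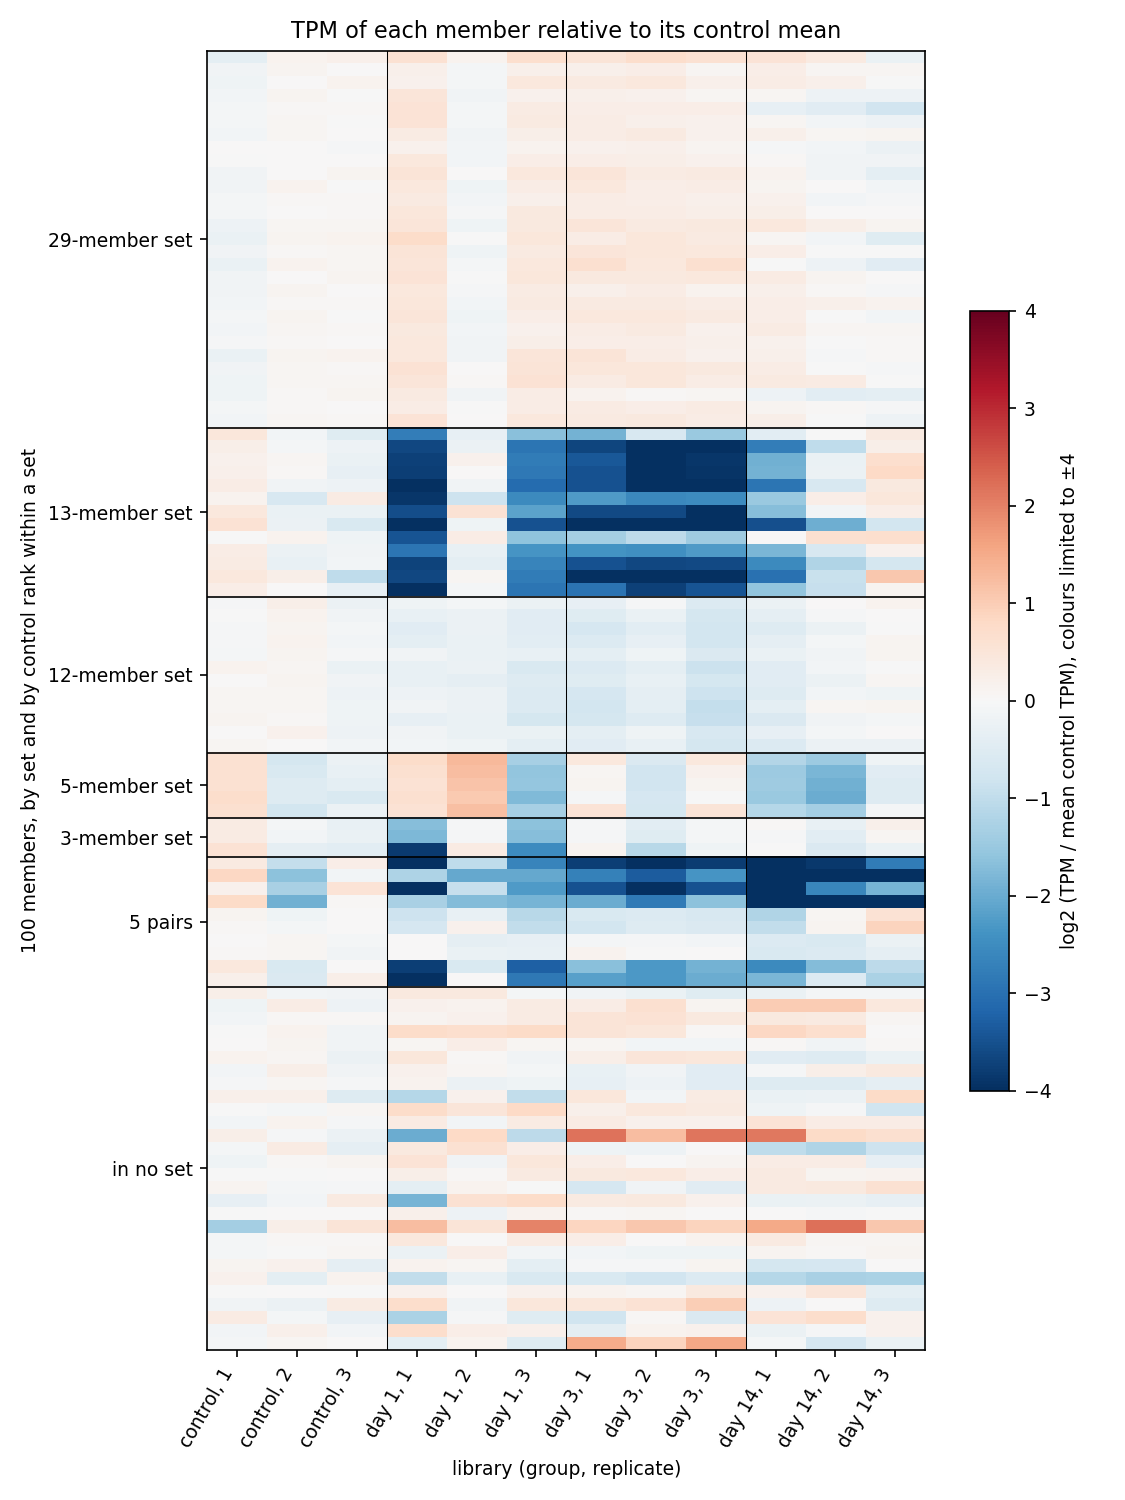
TPM of each of the 100 transcripts relative to its control mean, on a log2 scale limited to ±4, with libraries in columns and transcripts in rows ordered by set and control rank. The 13-member set is low in day 1 replicates 1 and 3 and in all day 3 libraries, near control in day 1 replicate 2 and in day 14 replicate 3, while most other rows stay pale.

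**Figure D4:**
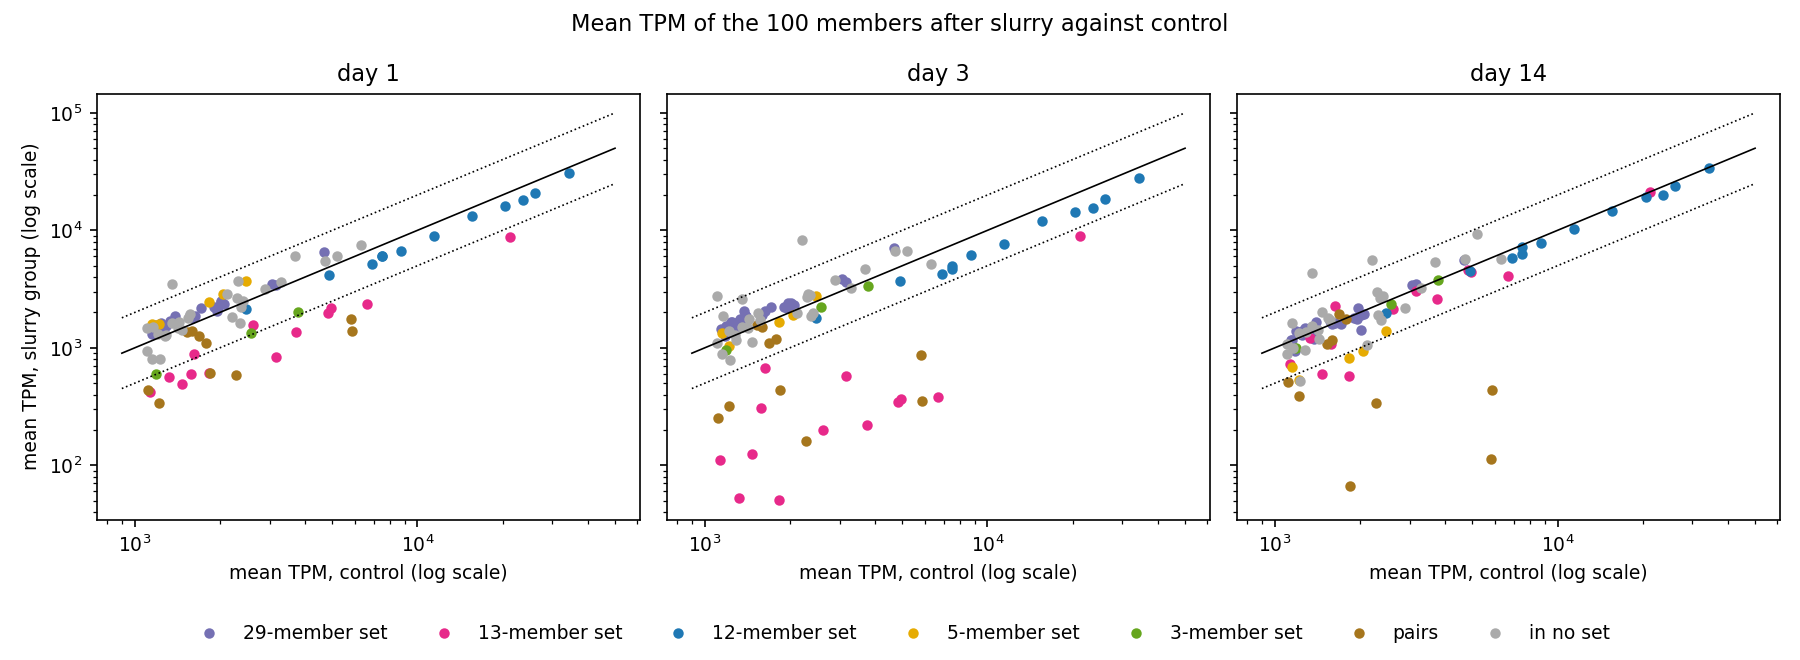
Mean TPM of each of the 100 transcripts on each day after slurry against its control mean, both on log scales; the solid line is equality, the dotted lines mark 2-fold, and colours give the sets. At day 3, 16 points lie more than 4-fold below the line, of which 11 are of the 13-member set, and at day 14, 4 points of the pairs remain there.

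The list was also set against the order of abundance on each day. Control chose the list, so any other group could only match it or hold fewer of it. The counts and positions that follow are therefore a description, and no replacement is read from them. Lists chosen from 2 of the 3 control libraries already kept only 93, 97 or 96 of the 100. Of the 100, 84 were among the 100 most abundant transcripts of day 1 by mean TPM, 75 of day 3 and 79 of day 14. The lowest position reached was 402 at day 1 (rank 86), 2892 at day 3 (rank 51) and 1936 at day 14 (rank 49). The day 1 positions include day 1 replicate 2, and positions without that library are not given. Each group's own 100 most abundant transcripts held 33% of TPM at day 1, 32.4% at day 3 and 36.9% at day 14, against 37.8% in control. By construction, a group's own list cannot hold less of its mean TPM than the control list does. Nothing is therefore drawn from these values being higher. In estimated reads, the own lists held 15.1%, 19.7% and 20.7% in the same order, against 20.3% in control.

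The 100 transcripts varied less between replicates than transcripts in general. They were chosen for high abundance and no transcripts of like abundance were compared, so this difference is not separated from abundance. Their median coefficient of variation of TPM was 10.6% in control, 19.9% at day 1, 9.94% at day 3 and 15.2% at day 14, against 31.4%, 37.0%, 24.5% and 31.8% over all transcripts tested. A coefficient over 50% was seen for 5 in control, 28 at day 1, none at day 3 and 21 at day 14. At day 14, replicate 3 was the highest library for 45 of the 100 and was more than 2-fold above replicate 1 for 19, of which 11 were of the 13-member set. Control fat and day 3 fat were thus the more uniform groups for these transcripts. Shares over all transcripts are not given for the counts over 50% or for those of day 14 replicate 3. These counts are therefore not read as particular to the 100.

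Day 3 was compared with day 1, and day 14 with each of them, in 1 edgeR quasi-likelihood fit over all 28016 transcripts, with limits of an adjusted p under 0.05 and a change over 2-fold. Between day 3 and day 1 none of the 100 was past the limits (0.00357% of all transcripts tested), 16 had an unadjusted p under 0.05 (9.27% of all), and DESeq2 called 6 (1.84% of all). Between day 14 and day 1, 2 of the 100 were past the limits, both lower at day 14 (1.02% of all transcripts tested in either direction, 0.639% lower). Between day 14 and day 3, 2 were past the limits, again lower at day 14 (1.98% of all in either direction, 1.5% lower). With no fold limit, 4 of the 100 had an adjusted p under 0.05 in each of these 2 comparisons (1.29% and 2.62% of all). Without day 1 replicate 2, 1 of the 100 was past the limits between day 3 and day 1 (0.177% of all), and 13 between day 14 and day 1 (3.82% of all). The median log2 fold change of the 100 was -0.18, -0.10 and 0.03 in these comparisons, against -0.03, 0.04 and 0.05 over all transcripts tested.

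In CPM, the groups did not overlap for 14 of the 100 between day 3 and day 1 (15.8% of all transcripts tested) and for 17 between day 14 and day 1 (21.8% of all). Between day 14 and day 3 they did not overlap for 50 (30.6% of all), of which 22 were higher at day 14 (14.9% of all) and 28 lower (15.8% of all). An unadjusted p under 0.05 was given to 34 of the 100 in that comparison (19% of all). The controls chose the list, so its counts against control are a description only. None of the 100 was past the limits at day 1 (0.00357% of all) or at day 3 (0.0143% of all). At day 1, 17 had an unadjusted p under 0.05 (7.77% of all), and DESeq2 called 1 (1.11% of all). Without day 1 replicate 2, 43 of the 100 had an unadjusted p under 0.05 at day 1, against 4244 of all 29392 tested. None of the 100 was past the limits in that fit (0.112% of all). At day 3, 40 had an unadjusted p under 0.05 (16.7% of all), and DESeq2 called 18 (4.76% of all). At day 14, 4 were past the limits, all lower (0.689% of all, 0.3% lower).

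Rank 15, ENSRNOT00000067391.2, a transcript of 391 bases, fell in both comparisons with day 14. Its TPM was 10239, 1860 and 5367 in control, 2470, 1404 and 1406 at day 1, 887, 586 and 1132 at day 3, and 110, 126 and 102 at day 14. No 2 slurry days overlapped and each was lower than the day before it, while the control libraries differed by more than 5-fold among themselves. The log2 fold change was -3.97 from day 1 to day 14 (SE 0.61, adjusted p = 0.0263) and -2.83 from day 3 to day 14 (SE 0.58, adjusted p = 0.0374) in edgeR's quasi-likelihood test. The second was no longer past the limits when any 1 of the 6 libraries compared was left out (adjusted p from 0.0602 to 0.141), and the first when any of them but day 1 replicate 2 was left out (adjusted p from 0.0559 to 0.1004). Both calls were also lost with the replicate number as a block (adjusted p = 0.0558 and 0.0588), and the first with only the 2 groups in the fit (adjusted p = 0.117). Its partner, rank 49, read 3129, 492 and 1933 in control, 754, 552 and 511 at day 1, 465, 259 and 593 at day 3, and 102, 66.7 and 30.3 at day 14. Its log2 fold change from day 1 to day 14 was -3.27 (SE 0.68, edgeR adjusted p = 0.0540), and -3.29 without day 1 replicate 2 (adjusted p = 0.0436).

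Rank 41, ENSRNOT00000015612.6, of 458 bases, also fell from day 1 to day 14. It read 2009, 2696 and 1671 TPM in control, 2767, 3217 and 2547 at day 1, 1890, 1838 and 2156 at day 3, and 1046, 925 and 1184 at day 14. Day 14 was below every other library, and day 1 overlapped with control. The log2 fold change from day 1 to day 14 was -1.45 (SE 0.21, edgeR quasi-likelihood test, adjusted p = 0.0259). It was not past the limits without day 1 replicate 1 (adjusted p = 0.0635), day 14 replicate 1 (0.0635) or day 14 replicate 2 (0.1004), with the replicate number as a block (0.0670), or with only the 2 groups in the fit (0.154).

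Rank 100, of 2063 bases, was high at day 3 only. Its TPM was 1032, 1155 and 1116 in control, 843, 1202 and 794 at day 1, 3082, 2025 and 3232 at day 3, and 1053, 690 and 921 at day 14. All 3 day 3 libraries were above all others. It was lower at day 14 than at day 3 by a log2 fold change of -1.58 (SE 0.25, edgeR quasi-likelihood test, adjusted p = 0.0168). This was not past the limits without day 3 replicate 1 (adjusted p = 0.0691), day 3 replicate 3 (0.0724) or day 14 replicate 2 (0.0765). Its log2 fold change from day 1 to day 3 was 1.45 (SE 0.25, adjusted p = 0.138 in the same fit), and 1.72 without day 1 replicate 2 (SE 0.24, adjusted p = 0.0494).

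None of the 100 rose past both limits between slurry days in the fit of all 12 libraries. The nearest was rank 64, ENSRNOT00000023017.6, of 1842 bases, whose log2 fold change from day 3 to day 14 was 0.97 (SE 0.22, edgeR adjusted p = 0.0482), under the 2-fold limit. It read 1594, 1409 and 1417 TPM in control, 1134, 1630 and 1469 at day 1, 932, 1330.5 and 1084 at day 3, and 1889, 1946 and 2246 at day 14, so that day 14 was above every other library. From day 1 to day 14 the smallest unadjusted p among the rises was that of rank 16, ENSRNOT00000071708.3, of 705 bases, with a log2 fold change of 0.63 (SE 0.22, edgeR adjusted p = 0.182). It read 4672, 6414 and 4535 TPM in control, 5816, 5701 and 6491 at day 1, 6398, 8044 and 5636 at day 3, and 10513, 10481 and 6961 at day 14. Ranks 37 and 44 had smaller falls from day 1 to day 14, with log2 fold changes of -0.97 and -0.80 (edgeR adjusted p = 0.0428 and 0.0461), and without day 1 replicate 2 rank 37 was past both limits (-1.03, adjusted p = 0.0294).

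**Figure D5:**
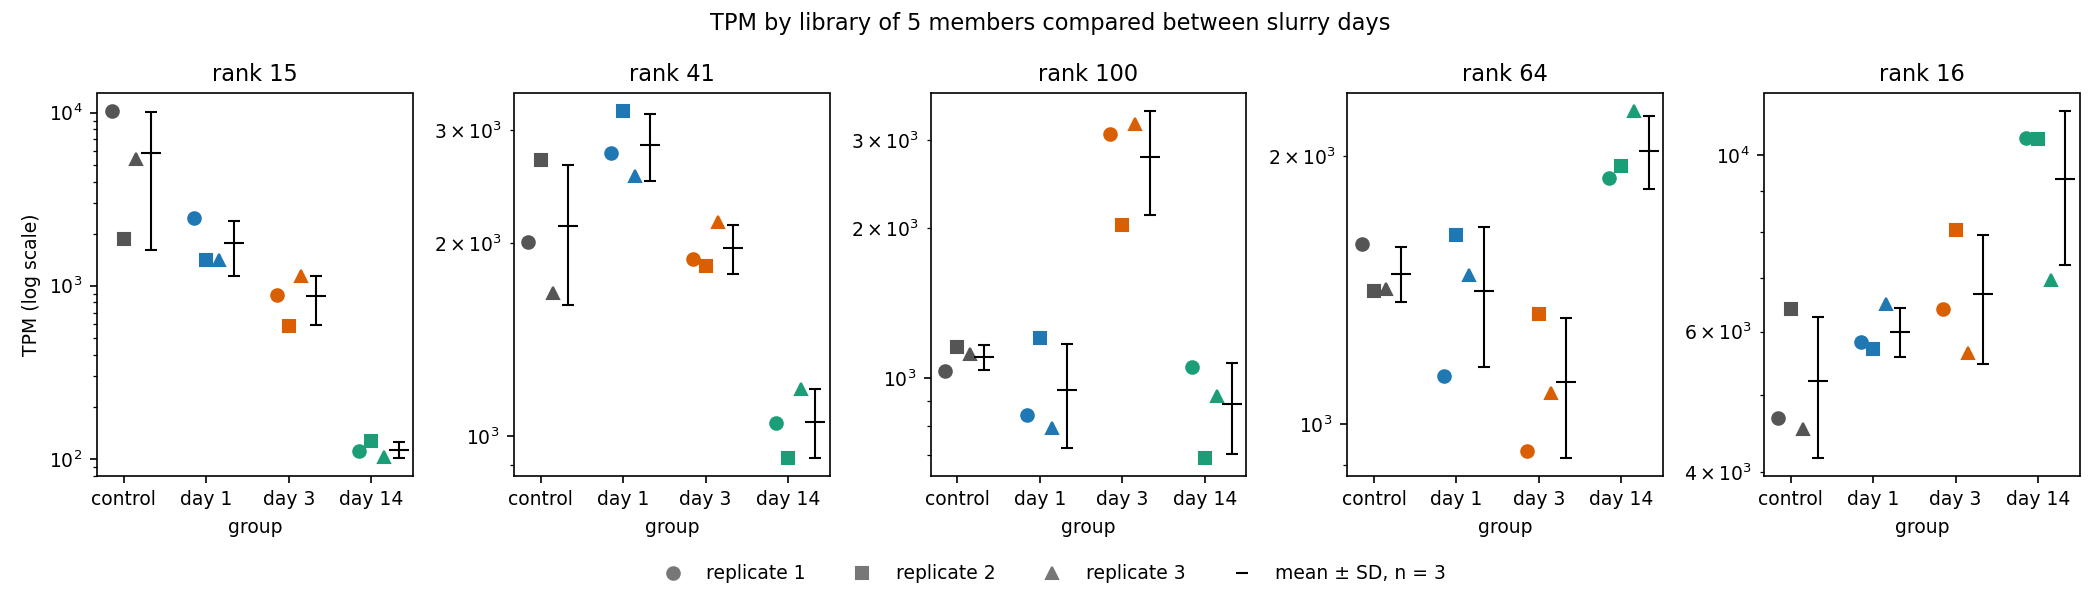
TPM by library, on log scales, of ranks 15, 41, 100, 64 and 16 in control, day 1, day 3 and day 14; symbols are replicates and the bars show mean ± SD (n = 3). Rank 15 is between 102 and 126 at day 14 and between 1404 and 2470 at day 1, rank 100 is above 2000 only at day 3, and rank 64 is highest at day 14.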

How the data were processed

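RNA from rat perigonadal fat was poly(A) selected and sequenced in 12 libraries, grouped from the labels. The authors quantified reads with Salmon (version not given in the sources used here) against Ensembl transcripts of mRatBN7.2, after FastQC 0.11.3, per the study's methods, while the labels name rn6. Their deposited tables give, per transcript, length, effective length, TPM and estimated counts. TPM values were used as deposited by the authors. The estimated counts were rounded for edgeR 4.0.16 (filterByExpr, TMM, robust quasi-likelihood fit of all 12 libraries, R 4.3.3), with Benjamini-Hochberg adjustment over 28016 transcripts and limits of adjusted p under 0.05 and more than 2-fold. SE is the log2 fold change divided by the square root of F. DESeq2 1.42.0, other filters, normalizations and lists, a replicate block and leaving out each library were alternatives. Shares given for DESeq2 are of all 37645 transcripts with at least 1 count in total. Its default filtering can leave some of these without an adjusted p, and such transcripts were counted as not called. The edgeR step was tested on simulated data. Summed shares were compared by exact permutation tests. None of the 46726 identifiers matched the 32100 genes of the RefSeq table at hand, which is of Rattus rattus, the organism on the labels, although the strain is Sprague-Dawley.

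Identifiers were printed for at most 2 transcripts that rose and 2 that fell: the largest change past the limits in day 14 against day 3 and against day 1 (the next largest where one repeats), or, where none passed, the smallest unadjusted p. The 10 highest ranks and all transcripts past the limits between slurry days are described by rank; those of the sets, pairs and folds against control were chosen after their values were seen. The list of transcripts was chosen with earlier results of these data known.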

Additional observations from a re-analysis of the deposited data

Results flagged for a closer look

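In comparisons between slurry days, 3 of the 100 transcripts were past the limits of edgeR's quasi-likelihood test, with 3 libraries a day. Rank 15 was lower at day 14 than at day 1 by a log2 fold change of -3.97 and lower than at day 3 by -2.83, in 3 of 3 day 14 libraries against each day. Rank 41 was lower at day 14 than at day 1 by a log2 fold change of -1.45, again with no overlap. Rank 100 was lower at day 14 than at day 3 by a log2 fold change of -1.58, and its day 3 libraries were above every other library. The 2 transcripts of the 100 past the limits in each comparison stood beside 1.02% of all transcripts tested in day 14 against day 1 and 1.98% in day 14 against day 3. These counts are near the shares of all transcripts and are not read as particular to the 100. Of 15 alternatives, the call was lost in 7 for rank 15 in each comparison, in 5 for rank 41 and in 3 for rank 100. What these transcripts encode could not be read from the tables used here.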

How the results depend on the processing

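All 20 alternatives for the share of TPM and 19 of 20 for the share of reads stayed on the same side of the threshold; the range without 1 slurry library was 3.19 to 7.11 percentage points between the highest and lowest day for TPM and 1.83 to 4.19 for reads, where the value without day 1 replicate 2 was 3.98. Without the 10 highest ranks the difference between the highest and lowest day shrank from 5.13 to 0.873 points of TPM and from 3.05 to 1.38 of reads. The order of days in TPM also changed: day 1 was then highest at 18.35%, beside 18.30% at day 14 and 17.48% at day 3. The number of the 100 transcripts past the limits moved more (shares of all transcripts tested in parentheses). For day 3 against day 1 (0) it was 6 with DESeq2 (1.84%) and 0 to 1 without 1 library. For day 14 against day 1 (2) it was 4 with no fold limit (1.29%), 0 with only the 2 groups, and 0 to 13 without 1 library, the 13 arising without day 1 replicate 2 (3.82%). For day 14 against day 3 (2) it was 4 with no fold limit (2.62%), 7 with at least 10 counts in every library (5.37%), 5 with only the 2 groups (2.83%), 15 with DESeq2 (5.78%) and 0 to 1 without 1 library. For day 1 against control (0) it was 1 with DESeq2 (1.11%). For day 3 against control (0) it was 2 with at least 10 counts (1.42%), 18 with only the 2 groups (3.61%), 18 with DESeq2 (4.76%) and 0 to 1 without 1 library. For day 14 against control (4) it was 0 with only the 2 groups, 7 with DESeq2 (4.73%) and 0 to 4 without 1 library. The cause was not tested. The number more than 4-fold below control at day 1 (1) was 18 without day 1 replicate 2. Rank 15 from day 3 to day 14 lost its call in 7 of 15 alternatives and from day 1 to day 14 in 7 of 15, rank 41 from day 1 to day 14 in 5 and rank 100 from day 3 to day 14 in 3, with no change of direction.

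With the replicate number as a block, 0 of the 100 were past the limits in day 14 against day 1, 1 in day 14 against day 3 and 1 in day 14 against control. Of 18 same-number pairs, 1 had deviations that correlated over 0.1 across all transcripts tested (median r -0.01), and 8 did across the 100 transcripts (median r -0.23). Pairs of different numbers were not set beside them, so these values cannot tell whether the numbers pair the libraries.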
